A study of Homo sapiens with 6 samples.

Results

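The cytosolic ribosomal proteins and their paralogs are described here in KHM-5M cells, a human line from an anaplastic thyroid cancer. The members are the genes whose symbol is RPL or RPS followed by a number, with the suffixes A, X or L, together with RPLP0, RPLP1, RPLP2 and RPSA. Kinases and read-through genes were left out. The rule found 85 members among 17687 genes, of which 77 encode the canonical proteins (46 of the large and 31 of the small subunit) and 8 are paralogs. Polyadenylated RNA was sequenced in 2 libraries of each of 3 groups. Control cells received PBS, the SS group received sodium selenite, and the SS+NAC group received sodium selenite together with NAC, which the study uses against reactive oxygen species. The study's methods call the libraries of a group biological replicates, but neither they nor the labels say that these came from separate cultures, so p-values measure only the spread between these libraries. The expected counts summed to 17645545 and 22016655 in control, to 23493415 and 23810056 in SS, and to 23682740 and 22617180 in SS+NAC.

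The thyroid factor PAX8 had 4942 to 6379 counts per library. The differentiation gene TG had 20 to 32 counts, SLC5A5 had 17 to 29, FOXE1 had 27 to 63 and NKX2-1 had 2 to 5. The keratin KRT8 had at least 18431 counts and VIM at least 99518 in each library. EPCAM had 89 to 116 counts and CDH1 had 8 to 16. The collagen gene COL1A1 had 11205 to 19043 counts, COL1A2 had 0 to 3 and PDGFRA had 2 to 6. Among leukocyte genes PTPRC had 8 to 14 counts and CD3E 0 to 1, and among endothelial genes PECAM1 had 9 to 27 and CDH5 0 to 4.

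Ribosomal proteins hold the ribosomal RNAs in shape and are made in near-equal amounts, since each canonical protein has a place in every ribosome. Their mRNAs are short and abundant. Most begin with a C followed by a run of C and T, the terminal oligopyrimidine (TOP) motif, through which mTOR signaling sets how much of them is translated. Most human members also have processed pseudogenes, copies of the mRNA inserted elsewhere in the genome.

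The transcript starts of the members show this motif and where it is missing. In the RefSeq promoter table (GRCh38.p14), 68 of the 85 members had an entry. The search asked for a C at the first transcribed base followed by 4 bases that are each C or T, on the strand of the gene. It was found at a listed start of 47 of the 68 members (69.1%), of 46 of 62 canonical members and of 1 of 6 paralogs. It was found in 5.14% of all 27305 genes of the table. When the motif could begin up to 5 bases from the listed start, 55 of the 68 members (80.9%) and 25.2% of all genes had it. The same letters on the other strand were found at the start of 2 of the 68 members (2.94%) and of 5.12% of all genes. The 30 bases from 10 before the start are given below for members from both subunits and the stalk and for 4 pairs of a canonical member and its paralog, with RPL7L1. Capitals mark the C and the C and T bases that follow it, where the motif was found. A match is a description and not evidence that the motif is used.
RPS6, minus strand of chr9:19380217-19380246: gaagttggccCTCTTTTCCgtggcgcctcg
RPL35, minus strand of chr9:124861938-124861967: cgcctacttcCTCTTTCCCTCggagcgggc
RPLP0, minus strand of chr12:120201092-120201121: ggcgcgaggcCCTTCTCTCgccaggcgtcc
RPL27A, plus strand of chr11:8682782-8682811: gaaggccttcCTTTTTCgtctgggctgcca
RPS27, plus strand of chr1:153990752-153990781: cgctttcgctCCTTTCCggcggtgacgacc
RPS27L, minus strand of chr15:63157458-63157487: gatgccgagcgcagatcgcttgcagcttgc
RPL22, minus strand of chr1:6199576-6199605: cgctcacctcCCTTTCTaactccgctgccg
RPL22L1, minus strand of chr3:170870176-170870205: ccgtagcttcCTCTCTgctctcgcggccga
RPL26, minus strand of chr17:8383174-8383203: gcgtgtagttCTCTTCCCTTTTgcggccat
RPL26L1, plus strand of chr5:172958719-172958748: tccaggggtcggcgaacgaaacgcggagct
RPL36A, plus strand of chrX:101391001-101391030: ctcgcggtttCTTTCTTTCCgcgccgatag
RPL36AL, minus strand of chr14:49620607-49620636: tcttccctttcctgttaggcgagagctgcg
RPL7L1, plus strand of chr6:42879606-42879635: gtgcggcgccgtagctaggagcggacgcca

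The canonical members were among the most abundant mRNAs of these cells. All 85 members together held 8.44% and 8.55% of the counts in the control libraries, 10.5% and 11.3% in SS, and 8.57% and 8.05% in SS+NAC. On the TPM scale, which divides by gene length and gives every library the same sum, they held 21.2% and 21.3% in control, 23.8% and 24.9% in SS, and 21.4% and 20.4% in SS+NAC. Both SS libraries lay above the other 4 on both scales. These are shares of the RNA of a library, so more of these mRNAs and less of the other RNA cannot be told apart.

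**Figure D1:**
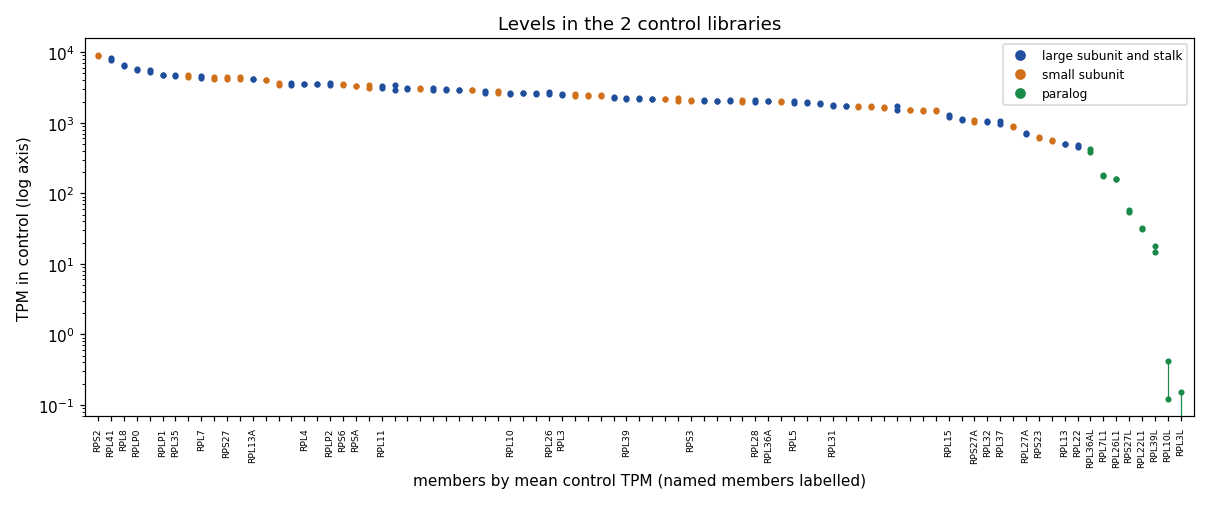
TPM of each member in the 2 control libraries (points joined by a line, log axis), ordered by mean. The canonical members lie between 460 and 9126 TPM and the paralogs below them, and the value of 0 for RPL3L in control replicate 2 lies below the axis.

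In control, the mean TPM of the canonical members ran from 468 for RPL22 to 8966 for RPS2, with a median of 2452, and 71 of the 77 had at least 1000 TPM. RPS2, a protein of the small subunit, had 8806 and 9126 TPM in the control libraries, 9625 and 10057 in SS, and 9311 and 8343 in SS+NAC. RPL41, the smallest ribosomal protein, had 7853 and 8283 TPM in control and was second in this order. RPL8, a large subunit protein next to the catalytic centre, followed with 6319 and 6681 TPM. The libraries of these 3 genes did not overlap in control, while in the order as a whole 52 of 84 neighbouring pairs overlapped. Low levels among canonical members partly go with long gene lengths in the deposited table, as for RPL13 (501 ± 9.59 TPM, SD, n = 2, at 4564 bases) and RPL27A (710 ± 10.4 TPM at 4940 bases), whose coding sequences are 633 and 444 bases long. GENCODE release 29 names 1144 pseudogenes after 77 of the members, 91 of them after RPL23A and 74 after RPSA. Counts were shared out among matching copies by the authors' program, so the level of such members is uncertain.

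Each paralog lay below its partner. RPL3L, a protein of heart and skeletal muscle, had 2, 0, 2, 0, 0 and 2 counts in the 6 libraries (control, SS and SS+NAC in order). RPL10L, the retrogene of RPL10 known from testis, had 3, 1, 2, 5, 2 and 4 counts. Both failed edgeR's filter on low counts, so 83 of the 85 members were tested. Control TPM was 138 times higher for RPL39 than for RPL39L, and 76.5 times higher for RPS27 than for RPS27L. The ratio was 24.8 for RPL7 over RPL7L1, 16.3 for RPL26 over RPL26L1, 15.0 for RPL22 over RPL22L1 and 5.01 for RPL36A over RPL36AL. RPL36A shares exons with the read-through gene RPL36A-HNRNPH2, and its counts are uncertain for that reason as well.

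The comparison of SS with control asks what selenite did to these mRNAs. Of the 83 tested members, 80 were called higher in SS and 0 lower, where called means an adjusted p no larger than 0.05 (edgeR, quasi-likelihood, Benjamini-Hochberg, 14005 genes); with an offset for gene length in each library, 6 were called higher. Among all tested genes, 18.6% were called higher and 21.4% lower, and 4.19% were called higher with the offset. The median log2 fold change of the members was 0.49, against 0.003 over all tested genes, and was -0.02 with the length offset. Bonferroni adjustment called 0 members and 1.57% of all tested genes. Leaving out control replicate 1 or SS replicate 2 left 51 members called higher in each case, beside 8.75% and 8.61% of all genes in those fits. In CPM (counts per library size, scaled by TMM), the lower SS library exceeded the higher control library for 82 of the 83, against 36.3% of all tested genes.

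**Figure D2:**
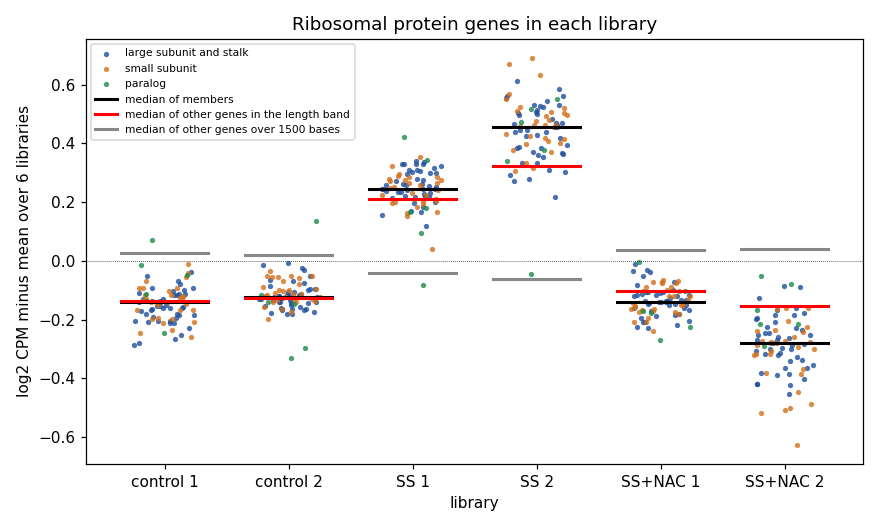
Log2 CPM of each tested member minus its mean over the 6 libraries, by library, with the medians of members, of other genes in the length band of the members (434 to 1631 bases) and of other genes over 1500 bases. Member medians were 0.25 and 0.46 in SS and lay between -0.28 and -0.12 in the other 4 libraries.

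The members moved as a block, and the SS libraries differed from each other. After subtracting the 6-library mean from each member, the median log2 CPM was -0.14 and -0.12 in control, 0.25 and 0.46 in SS, and -0.14 and -0.28 in SS+NAC. SS replicate 2 lay above SS replicate 1 for 82 of the 83. The quartiles of the log2 fold changes of the members were 0.43 and 0.54. The large subunit had a median of 0.49, with 45 of 46 called higher, and the small subunit a median of 0.50, with 30 of 31 called higher; with the length offset these medians were -0.01 and -0.05, with 6 and 0 called. With an offset by coding length, chosen after seeing the data, 18 of the large and 9 of the small subunit were called higher. The medians of the subunits were then 0.23 and 0.21, and 11.7% of all tested genes were called higher in that fit.

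Other short genes moved in the same direction. The members had a median effective length of 705 bases, where effective length is the gene length implied by the deposited counts and FPKM values. The other tested genes between the 10th and the 90th percentile of the members' lengths, 434 to 1631 bases, numbered 2299, and 62.9% of them were called higher in SS. These genes, called other genes of the members' length below, were longer at the median, with 1203 bases against 705. Their median log2 fold change was 0.41, which is 0.08 below that of the members. Leaving out each library moved this difference between 0.032 and 0.12. It moved below 0 when all other genes under 1000 bases were used instead, to -0.03 (759 genes with a median of 0.53). Against the 434 genes of the band with a mean of at least 100 CPM, whose median was 0.45 and of which 92.2% were called higher, the members were 0.05 higher.

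The same held within narrower length classes, whose limits were chosen after the values were seen. Up to 500 bases, the median log2 fold change was 0.51 for 17 members and 0.64 for 73 other genes. Between 500 and 750 bases it was 0.51 for 32 members and 0.55 for 245 others, and between 750 and 1000 bases it was 0.43 for 15 members and 0.49 for 441 others. From 1000 to 1500 bases it was 0.37 for 9 members and 0.38 for 1181 others. Up to 1500 bases, the member median of SS against control thus lay below that of other genes in each class. Beyond 1500 bases the values parted, with 0.48 for 10 members and -0.07 for 11982 other genes.

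**Figure D3:**
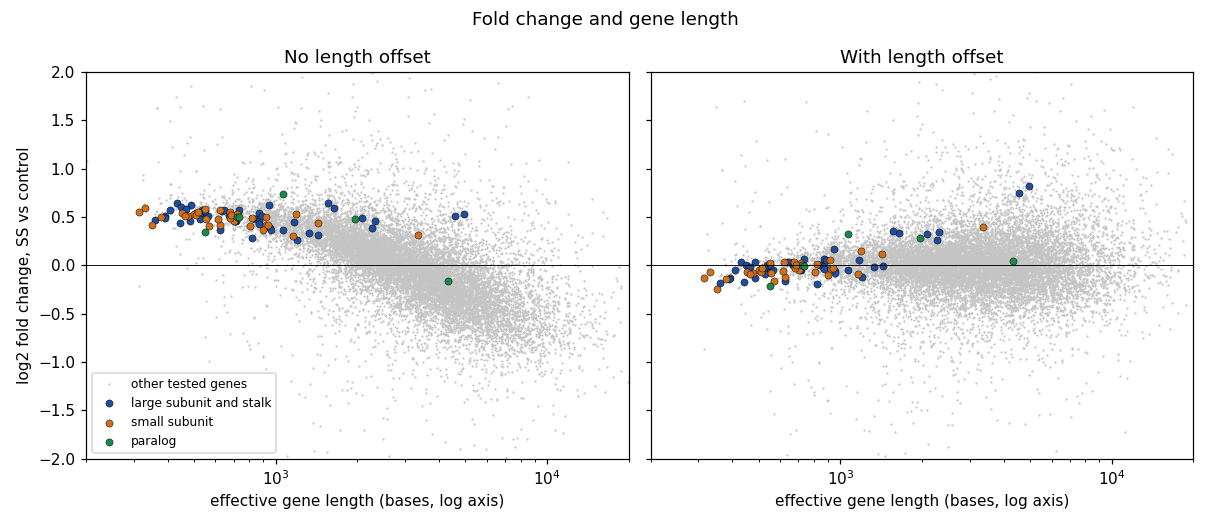
Log2 fold change of SS against control for each tested gene by effective length (log axis), without and with the length offset, with members coloured by subunit. Short members lie inside the cloud of other short genes, and a few members over 1500 bases lie above genes of their length; 59 and 63 genes, none of them members, fall outside the plotted range.

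The tested members over 1500 bases were RPL37 (1564 bases), RPL32 (1648), RPL22L1 (1965), RPL22 (2090), RPL10 (2267), RPL15 (2318), RPS23 (3343), RPL7L1 (4310), RPL13 (4564) and RPL27A (4940). Their coding sequences are short, between 291 bases for RPL37 and 765 for RPL7L1. All 6 members called with the length offset, RPL13, RPL15, RPL22, RPL27A, RPL32 and RPL37, are among these 10, and none of the 73 members up to 1500 bases was called with it. RPL27A, a large subunit protein on chromosome 11 from 8682411 to 8714759 (GRCh38), had 1779 and 1779 CPM in control, 2495 and 2662 in SS, and 1730 and 1724 in SS+NAC. Both SS libraries lay above the other 4. The difference between SS and control was 0.54 in log2 (edgeR quasi-likelihood test with Benjamini-Hochberg adjusted p = 0.000723, standard error 0.0800), and 0.82 with the offset (adjusted p = 0.000277 by the same test). RPL13, on chromosome 16 from 89560657 to 89566828, had 1164 and 1157 CPM in control, 1548 and 1749 in SS, and 1161 and 1056 in SS+NAC. The SS libraries were again the highest, and its log2 fold change was 0.51 without and 0.75 with the offset.

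RPL37, RPL32, RPL15 and RPL22 had log2 fold changes of 0.65, 0.60, 0.46 and 0.49 without the offset and 0.36, 0.33, 0.34 and 0.33 with it. The offset of a gene depends on the length given to it. When the length of a GENCODE coding sequence was used instead, an alternative chosen after seeing the data, 28 members were called higher (11.7% of all tested genes) and RPL7L1 lower (-0.34; 13.8%), and 4 of the 6 named above were among the 29. RPL13, RPL15, RPL27A and RPL32 kept the call at 0.29, 0.23, 0.23 and 0.27, and RPL22 (0.16) and RPL37 (0.27) lost it. With a GENCODE transcript length, also chosen after seeing the data, 8 members were called higher, of which 3 were among the 6, beside 6.82% of all tested genes. Here RPL22, RPL27A and RPL37 kept the call at 0.37, 0.79 and 1.05, and RPL13, RPL15 and RPL32 lost it at 0.06, 0.04 and 0.13. The median log2 fold change of the members was 0.21 with the coding length and 0.05 with the transcript length. With the coding length, 33.7% of the members were called higher. Other genes of their length had a median of 0.20 in that fit, with 22.1% called higher. Those of them with at least 100 CPM had 0.21 and 38.2%. Which length describes the fragments of these mRNAs was not tested.

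**Figure D4:**
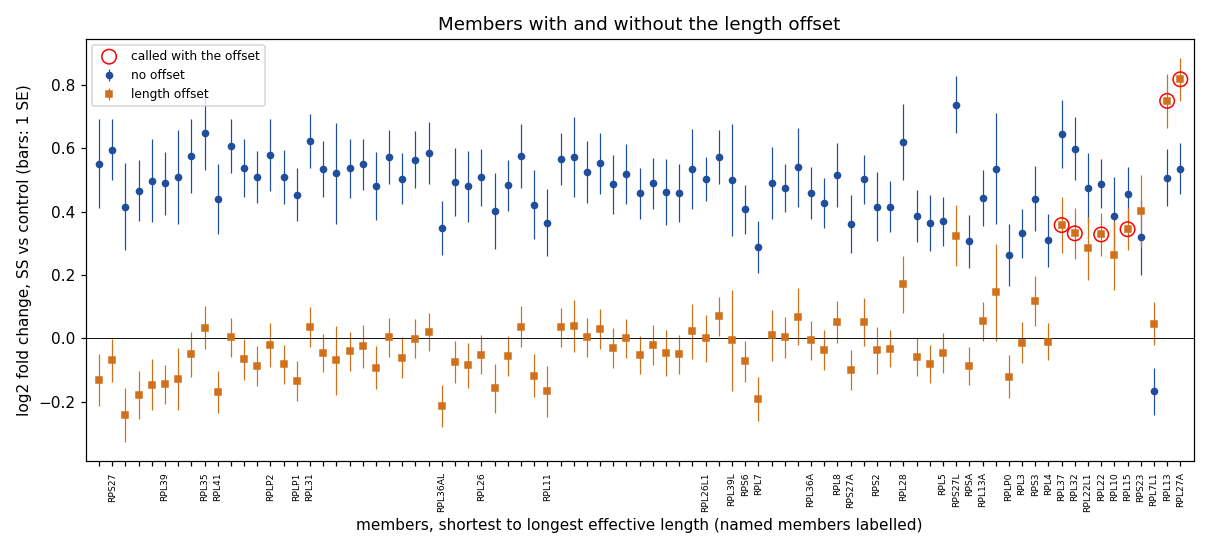
Log2 fold change of SS against control (bars, 1 standard error) for the 83 tested members from the shortest to the longest, without and with the length offset. Without it 82 lie above 0; with it most lie near 0, and the 6 circled members, all over 1500 bases, were called.

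RPS27L and RPL7L1 stood at the ends of the order. RPS27L, a paralog of RPS27 and a known target of p53, lies on chromosome 15 from 63125872 to 63158021. It had 31.6 and 29.8 CPM in control, 50.2 and 52.0 in SS, and 31.1 and 36.2 in SS+NAC, with no overlap between SS and the other groups. Its log2 fold change of 0.74 (standard error 0.0900, edgeR quasi-likelihood test with Benjamini-Hochberg adjusted p = 0.000297) was the highest among the tested members, and with the length offset it was 0.32 and not called (adjusted p = 0.0656 by the same test). With the coding and transcript lengths, chosen after seeing the data, RPS27L was called higher, at 0.34 and 1.09. The latter exceeds the value without an offset and rests on the transcript length given to this gene, which was not tested. RPS27 itself had 688 and 763 CPM in control, 1012 and 1182 in SS, and 729 and 680 in SS+NAC. Both SS libraries were the highest, and the log2 fold change was 0.60, or -0.07 with the offset.

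RPL7L1, a relative of RPL7 on chromosome 6 from 42879618 to 42889925, was the 1 tested member with a negative value. It had 387 and 405 CPM in control, 348 and 357 in SS, and 367 and 349 in SS+NAC. The control libraries were the highest 2 for this gene. Its log2 fold change of -0.17 was not called (standard error 0.0742, edgeR quasi-likelihood test with Benjamini-Hochberg adjusted p = 0.0988), and it was 0.05 with the length offset. RPL7 had 1862 and 1835 CPM in control, 2169 and 2343 in SS, and 1687 and 1772 in SS+NAC, a log2 fold change of 0.29, and -0.19 with the offset. The 61 pseudogenes named after RPL7 make its value uncertain.

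The other paralogs were called higher like their partners, and none was called with the length offset; with the transcript length, chosen after seeing the data, RPL22L1 was called (0.38). RPL22L1, which RPL22 is known to hold down, had 31.2 and 31.1 CPM in control, 38.3 and 48.4 in SS, and 29.9 and 27.6 in SS+NAC. RPL22L1 had a log2 fold change of 0.47, and RPL22 of 0.49. RPL26L1 had 58.7 and 58.3 CPM in control, 81.8 and 83.9 in SS, and 55.2 and 55.6 in SS+NAC, a log2 fold change of 0.50 beside 0.51 for RPL26. In each of these genes both SS libraries lay above the other 4. RPL36AL (0.35) lay below RPL36A (0.46), and RPL39L (0.50) near RPL39 (0.49); RPL39L had 5.43 to 6.61 CPM in control and 7.15 and 9.82 in SS. The differences within pairs were not tested. With the offset, the log2 fold changes of RPL36AL, RPL36A, RPL39 and RPL39L lay below 0.

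**Figure D5:**
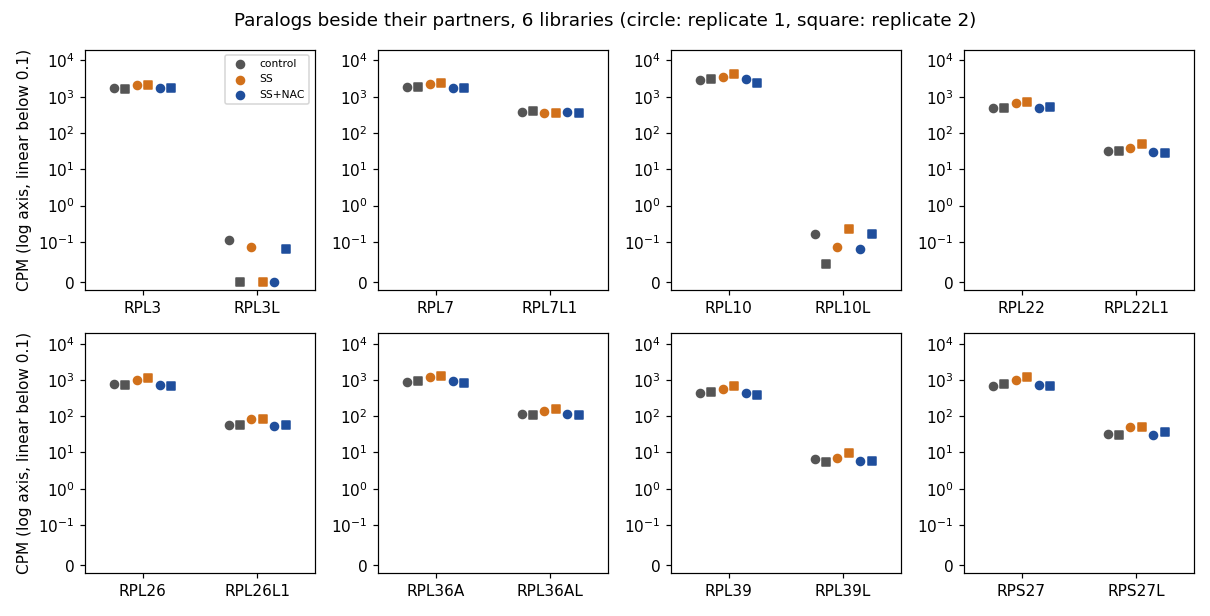
CPM of 8 canonical members and their paralogs in the 6 libraries (log axis, linear below 0.1), coloured by group. Each paralog lies below its partner in every library, and RPL3L and RPL10L lie at or below 0.23 CPM.

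The stalk proteins recruit the factors that drive elongation. RPLP0 had 3344 and 3560 CPM in control, 3892 and 4390 in SS, and 3407 and 3046 in SS+NAC. Although the SS libraries were the highest, its log2 fold change of 0.26 missed the threshold (edgeR quasi-likelihood test with Benjamini-Hochberg adjusted p = 0.0528). RPLP1 and RPLP2 were called, with 0.45 and 0.58; with the length offset the 3 stalk genes had -0.12, -0.13 and -0.02. RPS23, a small subunit protein at the decoding centre, was the last of the members not called. It had 1026 and 1087 CPM in control and 1143 and 1492 in SS, and its log2 fold change was 0.32 (adjusted p = 0.0548 by the same edgeR quasi-likelihood test with Benjamini-Hochberg adjustment). RPS23 had 0.40 with the length offset and was not called, 0.42 with the transcript length and was called, and 0.0028 with the coding length and was not called.

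Among members named for a known special role, RPS6, the target of the S6 kinases, had 1429 and 1418 CPM in control. It had 1842 and 1934 CPM in SS, and 1397 and 1385 in SS+NAC. RPS6 had a log2 fold change of 0.41 (standard error 0.0777), and -0.07 with the length offset. RPL5 and RPL11, which bind MDM2 when ribosome assembly is disturbed, had 0.37 each, and -0.05 and -0.17 with the offset. RPSA, also known as a laminin receptor, had 0.31, RPL4, which lines the exit tunnel, 0.31, and RPL3, part of the catalytic centre, 0.33; all were called without the offset and lay below 0 with it. By coding length, chosen after seeing the data like the transcript length, RPL3 (0.30), RPL4 (0.29), RPL5 (0.23) and RPS6 (0.23) stayed called, and RPSA (0.16) and RPL11 (0.10) did not; by transcript length only RPL4 (0.31) of these did. RPL13A, which silences inflammatory mRNAs once released from the ribosome, had 0.44, and RPS3, at the entry of the mRNA, 0.44. With the length offset RPL13A had 0.05 and RPS3 0.12, and neither was called. RPS27A, made as a fusion with ubiquitin, had 0.36, and -0.10 with the length offset. The highest values after RPS27L were those of RPL35 (0.65), RPL37 (0.65), RPL31 (0.62) and RPL28 (0.62). RPL35 had 1045 and 1033 CPM in control, 1473 and 1783 in SS, and 1044 and 853 in SS+NAC, and its log2 fold change with the offset was 0.03.

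The members can also be divided by the motif at their start. The 47 tested members with it had a median log2 fold change of 0.50, with 45 called higher, and the 20 with an entry but without it had 0.46, with 19 called higher; 8 of these 20 had the motif within 5 bases of a listed start. With the length offset the medians were -0.02 and -0.03. Among other tested genes, the 755 with these letters at a start had a median of 0.04, and 21.3% of them were called higher; the 10063 without them had -0.01 and 18.2%. These values compare groups of genes, and the difference was not tested.

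Members also often host small nucleolar RNAs, which guide the modification of ribosomal RNA and lie inside introns. In GENCODE release 29, 28 of the 85 members (32.9%) held 60 such genes on their own strand, against 190 of 13632 other tested genes (1.39%). Polyadenylated RNA was captured, so these small RNAs were not measured here.

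The comparison of SS with SS+NAC asks whether NAC changed the response; it shares the SS libraries with the comparison above, so the 2 are not independent. Here 82 of the 83 members were called higher in SS and 0 lower, and 9 were called higher with the length offset. Among all tested genes, 19.6% were called higher and 23.1% lower, and 7.03% higher with the offset. Without it, 61.2% of other genes of the members' length and 69.4% of other genes under 1000 bases were called higher. Of the genes of the members' length with at least 100 CPM, 94.7% were called higher. The median log2 fold change of the members was 0.57 without and 0.01 with the offset, and that of the 2299 other genes of their length was 0.40 without it. With coding lengths 52 members (62.7%) were called higher (15.6% of all tested genes) with a median of 0.28. Other genes of their length had 0.19 and 29.7% in that fit, and those with at least 100 CPM had 0.26 and 55.5%. With transcript lengths 13 members were called higher (10.7% of all tested genes) with a median of 0.11. Both lengths were chosen after seeing the data. Without an offset, the member median lay 0.17 above that of the 2299 other genes, and 0.04 above other genes under 1000 bases. By length class, the members lay below other genes up to 500 bases (0.64 and 0.71) and just below from 750 to 1000 bases (0.50 and 0.51), and above them from 500 to 750 (0.58 and 0.57) and from 1000 to 1500 bases (0.41 and 0.36). The SS libraries lay above both SS+NAC libraries for 82 members, against 32.3% of all tested genes.

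RPL7L1 was the member not called, with a log2 fold change of -0.02. The 9 called with the offset were RPL10, RPL13, RPL15, RPL22, RPL22L1, RPL27A, RPL32, RPL37 and RPS23, that is, every tested member over 1500 bases except RPL7L1. RPL10, whose joining completes the large subunit, had 2966 and 3083 CPM in control, 3563 and 4335 in SS, and 3086 and 2449 in SS+NAC. Its log2 fold change against SS+NAC was 0.51, and 0.41 with the offset. RPL10 had 0.31 with the coding length and 0.23 with the transcript length, and was called with neither. Of the 9, 5 kept the call with the coding length and 5 with the transcript length. RPL35 had 0.78 and RPL41 0.62 in this comparison. With the offset RPL35 had 0.10 and RPL41 -0.05, and neither was called. Bonferroni adjustment called 0 members and 1.36% of all tested genes.

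Between SS+NAC and control, which share libraries with the comparisons above, edgeR's quasi-likelihood test called 0 of the 83 members, and DESeq2 called 0 as well, against 2.30% of all genes that DESeq2 tested. At an unadjusted p under 0.05, edgeR counted 0 members and 2256 of all 14005 tested genes. Over all tested genes, 2.01% were called. The median log2 fold change of the members was -0.08, against -0.003 for the other genes of their length. It was -0.05 for those of the other genes with at least 100 CPM, and -0.03 for other genes under 1000 bases. Leaving out each library moved the member median between -0.14 and -0.0092. The values ran from -0.26 to 0.13, and both SS+NAC libraries lay below both control libraries for 30 members, against 23.6% of all tested genes. Without SS+NAC replicate 1, which leaves 1 library assumed to vary like the other groups, 4 members were called lower, beside 3.69% of all genes in that fit. SS+NAC replicate 1 lay above replicate 2 for 74 of the 83 members.

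Other genes of the ribosome and of translation were read from fixed lists. FAU, a small subunit protein made as a fusion, and RACK1, a scaffold on the small subunit, rose in SS, with log2 fold changes of 0.53 and 0.44, and -0.04 and 0.03 with the length offset. Of 15 other mRNAs listed as TOP mRNAs, 9 had a promoter entry and 7 of these showed the motif. In SS, 8 of the 15 were called higher and 1 lower (18.6% and 21.4% over all tested genes), with a median of 0.25. With the length offset 2 were called higher and 1 lower (4.19% and 5.03% over all), with a median of 0.02. TPT1, at 4706 bases, was the highest (0.44, and 0.70 with the offset), and EIF3A, at 6822 bases, the lowest (-0.54, and -0.12 and not called with the offset). Of 4 nascent chain and dormancy factors, 3 were called higher, with EIF6 at 0.52 and SERBP1 at -0.02, which was not called; with the offset SERBP1, at 6821 bases, was called higher, at 0.40, and EIF6 (0.11) was not called.

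Of 41 ribosome biogenesis factors, 10 were called higher and 6 lower (18.6% and 21.4% over all tested genes), with a median of 0.14 and values from NOP10 (0.57, at 509 bases) to WDR43 (-0.44, at 3564 bases). Of 14 genes of RNA polymerase I, which transcribes ribosomal RNA, 2 were called higher and 3 lower, from ZNRD1 (0.69) to TAF1A (-0.33). With the length offset, 1 biogenesis factor was called higher and 3 lower, and 0 and 2 polymerase genes (4.19% and 5.03% over all genes). NOP10 (-0.01) and ZNRD1 (0.21) lost the call, while WDR43 (-0.33) and TAF1A (-0.52) kept it. These lists have median effective lengths of 2398 and 2801 bases, against 705 for the members.

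The members can be set beside lists of other cellular machines, with 18.6% of all tested genes called higher, 4.19% with the length offset, and 62.9% of other genes of the members' length without it. The median effective lengths of these 3 lists were 1143, 783 and 1409 bases. Of 78 mitochondrial ribosomal protein genes, 67 were called higher and 0 lower, with a median of 0.44, and 6 were called higher with the length offset. MRPL54 (0.68, and 0.14 and not called with the offset) was the highest, and MRPL19 had -0.07, or 0.40 with the offset, at 7943 bases. Of 79 tested respiratory chain genes, 74 were called higher and 0 lower, with a median of 0.54, and 6 with the offset. Among those averaging 10 CPM or more, the highest value was 1.08, for the read-through gene ATP5MF-PTCD1, whose counts are uncertain, and the lowest was -0.02, for NDUFA5. Of 46 tested proteasome genes and assembly factors, 35 were called higher and 1 lower, with a median of 0.38, from PSMB10 (0.66) to PSME4 (-0.47). With the length offset, 4 proteasome genes were called higher and 1 lower, beside 4.19% and 5.03% of all tested genes. The median of this list was 0.08, and PSMB10 (0.23) and PSME4 (-0.04) were not called. With coding lengths, 21 mitochondrial ribosomal protein genes, 34 respiratory chain genes and 24 proteasome genes were called higher, beside 11.7% of all tested genes. Between SS+NAC and control, 0 genes of these 3 lists were called by edgeR, beside 2.01% of all tested genes. Their median log2 fold changes in that comparison were -0.08, -0.07 and -0.06, beside -0.08 for the members.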

How the data were processed

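The deposited expected counts were made by the authors with RSEM 1.2.12 from single-end reads filtered with SOAPnuke and mapped with HISAT2 2.0.4 (Bowtie2 2.2.5 is also named), per the labels. The TPM values, scaled by gene length to a fixed sum, and the FPKM values, scaled by effective length and mapped reads, were also made by the authors with RSEM. The 9 group-mean columns and the 9 columns of the authors' comparisons (fold changes, p and q values) were not used. Counts were rounded, filtered with filterByExpr, scaled by TMM and tested in edgeR 4.0.16 (R 4.3.3, limma 3.58.1) by the quasi-likelihood test, with Benjamini-Hochberg adjustment at 0.05. Effective length is the ratio of counts to FPKM. The length offset is a lowess curve (span 0.3) of each library's log2 CPM deviation against log length.

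Alternatives were DESeq2 1.42.0, its size factors, other filters, Bonferroni, a replicate block, leaving out each library, and other length offsets. Positions and lengths came from GENCODE 29, where the protein-coding transcript of a gene was chosen by annotation rank and then as the shortest. Named members were the highest and lowest in SS against control, those called with the offset, those not called, the paralog pairs, the highest and lowest by TPM, and members with roles known outside this study; in lists, the highest and lowest averaging 10 CPM or more. The members and lists were chosen with earlier results of these data known, and the length classes and the 1500-base limit after the values were seen. The scripts (Python 3.11.15, pandas 2.3.3, numpy 2.4.6, matplotlib 3.10.9) were tested on simulated data. Values of some genes are not reported here.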

Additional observations from a re-analysis of the deposited data

How the results depend on the processing

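With the length offset, the counts of members called were 6 in SS against control and 9 in SS against SS+NAC, and 6 and 9 when the curve was fitted without the members. The medians were -0.025 and 0.010, or -0.038 and 0.011 without the members. The differences from other genes of their length were -0.051 and -0.0047, or -0.062 and -0.0043. With GENCODE transcript lengths the counts were 8 and 13 and the medians 0.053 and 0.11. With coding lengths they were 29 and 52, and 0.21 and 0.28. Of all 14005 tested genes, 1292 and 2019 were called with the length offset. The numbers were 2245 and 3165 with transcript lengths, and 3570 and 4342 with coding lengths. Bonferroni adjustment called 0 and 0. Against other genes under 1000 bases the differences were -0.034 and 0.037, and against genes of at least 100 CPM the difference in SS against SS+NAC was 0.085.

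Leaving out each library gave 51 to 82 members called in SS against control, 73 to 82 in SS against SS+NAC and 0 to 4 in SS+NAC against control. The medians ran from 0.38 to 0.59, from 0.46 to 0.67 and from -0.14 to -0.0092, and the differences from other genes of their length from 0.032 to 0.12, from 0.12 to 0.22 and from -0.11 to -0.036. The lone library of a group was assumed to vary like the other groups. In each comparison the number of all tested genes called also differed between these fits. The member counts alone therefore do not show a change particular to the members.

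With the length offset, 34 of the 83 members had positive log2 fold changes of SS against control, against 82 without it. For the named members that turned sign, values are given with the length offset and then with the curve fitted without the members. They were -0.17 and -0.18 for RPL11, -0.050 and -0.064 for RPL26, -0.014 and -0.013 for RPL3, -0.0057 and -0.0098 for RPL36A, -0.21 and -0.23 for RPL36AL, -0.14 and -0.17 for RPL39, and -0.0060 and -0.014 for RPL39L. They were -0.0098 and -0.0096 for RPL4, -0.17 and -0.19 for RPL41, -0.046 and -0.047 for RPL5, -0.19 and -0.20 for RPL7, 0.046 and 0.047 for RPL7L1, -0.12 and -0.12 for RPLP0, -0.13 and -0.15 for RPLP1, and -0.020 and -0.038 for RPLP2. They were -0.037 and -0.040 for RPS2, -0.069 and -0.094 for RPS27, -0.099 and -0.10 for RPS27A, -0.072 and -0.077 for RPS6, and -0.086 and -0.087 for RPSA. RPL26L1 turned only in the latter fit, to -0.0079. Of the 20 that turned with the effective length, 18 kept their sign with coding lengths, 5 of them called, and 12 with transcript lengths, 1 of them called. The cause was not tested. Of the 37 named members tested in this way, 37 kept direction and call with DESeq2 size factors, 34 with DESeq2's test, 36 without a filter on low counts, 35 with 10 counts in every library, 35 in a fit of the 2 groups alone and 33 with the replicate block. Without control replicate 1, SS replicate 2 or control replicate 2, 25, 25 and 28 kept both, and 12, 12 and 9 lost the call. With the length offset 20 turned sign, 10 lost the call and 7 kept both.

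A replicate block called 76, 82 and 0 members in SS against control, SS against SS+NAC and SS+NAC against control, with medians of 0.49, 0.57 and -0.074, beside 4857, 5136 and 211 of all 14005 tested genes called. Residuals of equally numbered libraries correlated at 0.113, -0.105 and -0.175, so equal numbers were not taken as pairs, and how the libraries were made is not known. With the SS+NAC numbers crossed, an alternative chosen after seeing the data, the block called 83, 82 and 5 members, beside 7151, 7286 and 1475 of all 14005 tested genes.

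Each group held 2 libraries, and the labels give neither the exposure time nor the unit of the dose. Expression was measured as a share of RNA, so total ribosomal protein mRNA per cell, translation and protein were not measured. Most members lost the call in both SS comparisons with offsets by effective or transcript length. With coding lengths, 28 of the 83 were called higher in SS against control and 52 in SS against SS+NAC. Over all tested genes the shares were 11.7% and 15.6%. Among other genes of the members' length with at least 100 CPM, they were 38.2% and 55.5%. The length that the table gives to some members is far above that of their coding sequence. The cause of the length trend was not tested.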
